A study of Mus musculus with 14 samples.

Results

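The chemokines are small secreted proteins that steer the movement of leukocytes and other cells. They were taken from the arrays by name: every probe whose gene name was Cxcl or Ccl followed by a number, or Cx3cl1. This gave 43 probes for 33 genes, of 27670 genes on the array, with 19 CC ligands, 13 CXC ligands and 1 CX3C ligand. Of these, 39 probes passed the signal filter and 30 genes were tested, among 23647 genes tested in all. The files' names Cxcl4, Cxcl7 and Ccl27 stand for the genes now called Pf4, Ppbp and Ccl27a.

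Sorted mammary cells of mice on the FVB/N background were profiled on 14 2-colour arrays, with their RNA in Cy5 and a reference RNA pooled from 11 mouse cell lines in Cy3. The groups were P4, P5 and P6 from pregnant wild-type FVB/N-J mice, P4, P5 and P6 from virgin wild-type FVB/N-J mice (2 arrays each), and GFPhi and GFPlo from virgin L2G85 mice (1 array each). L2G85 is a luciferase transgenic line of this strain, and its lineage-negative cells were gated on GFP. Per the labels, P4 and GFPhi are enriched for mammary stem cells, P5 is enriched for luminal progenitors, P6 is differentiated epithelium and GFPlo is depleted of stem cells. The labels give CD24+CD29hi as the gate of both P4 and P5 and CD24lo for P6, and they give neither the stage of pregnancy nor the age of the mice, nor whether the 2 arrays of a group came from separate animals, so p-values measure the spread between these arrays, which may be technical.

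Chemokines bind G protein-coupled receptors on the cells they attract and are held on proteoglycans of the tissue. Inflammatory members such as Ccl2 or Cxcl1 are switched on through NF-kB and interferon signalling, while homeostatic members such as Cxcl12 are made steadily by stroma. In the mammary gland, macrophages and eosinophils attend duct growth, and Ccl28 brings antibody-secreting cells to the gland for milk immunity.

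Each value below is a log2 ratio of the sorted cells over the reference RNA, so values of different genes are not compared, and a difference between groups is a difference of these ratios. Calls were made with limma, at a threshold of 0.05 on p-values adjusted over all genes (Benjamini-Hochberg). In sorted bulk RNA, fewer cells of a type and less RNA per cell cannot be told apart. Marker lists check the labels. In P4 against P5, 5 of 10 basal epithelial markers were higher and none lower in pregnant mice, and 10 of 10 were higher in virgin mice. The shares of all genes higher there were 11.7% and 6.57%. Of 13 luminal markers, 3 were lower and 1 higher in pregnant P4 than in pregnant P5, against 10.9% and 11.7% of all genes. The list median there was 0.054, against -0.050 over all genes. As a whole this list did not set pregnant P5 apart from pregnant P4. In virgin mice 12 of the 13 were lower in P4 than in P5, against 4.78% of all genes. P6 went against its label, since 12 of 12 fibroblast markers were lower in P4 and in P5 than in P6, in both conditions. Among all genes, 5.49% to 13.2% were lower in these comparisons. The mean log2 ratio of that fibroblast list was 4.22 to 5.57 on the pregnant P6 arrays and 5.15 to 5.28 on the virgin P6 arrays, and -1.28 to -0.21 on the 8 arrays of P4 and P5. Replicate 1 of the 3 pregnant populations was scanned apart from all others, without the extended dynamic range, and had 111 to 236 saturated spots against 0 to 15 on the other arrays.

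Of the 30 tested chemokines, 18 were called in at least 1 of 9 comparisons. The share of all genes called in at least 1 of the 9 is not given here. Single comparisons called 0.186% to 26.9% of all genes, and these shares are no measure for a count over all 9. Ccl2, Ccl7, Ccl11 and Ccl8 had their highest group mean in P6. Cxcl15 stood out in virgin P5, Ccl9, Ccl25 and Ccl28 had their highest mean in pregnant P5, and Cxcl12, Cxcl13, Ccl20 and Ccl27a had theirs in virgin P4. None of Cxcl12, Cxcl13, Ccl20 and Ccl27a was called between virgin P4 and virgin P6 without a block, and the Cxcl13 arrays of these groups overlapped. The heat map shows all 30 genes array by array.

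**Figure D1:**
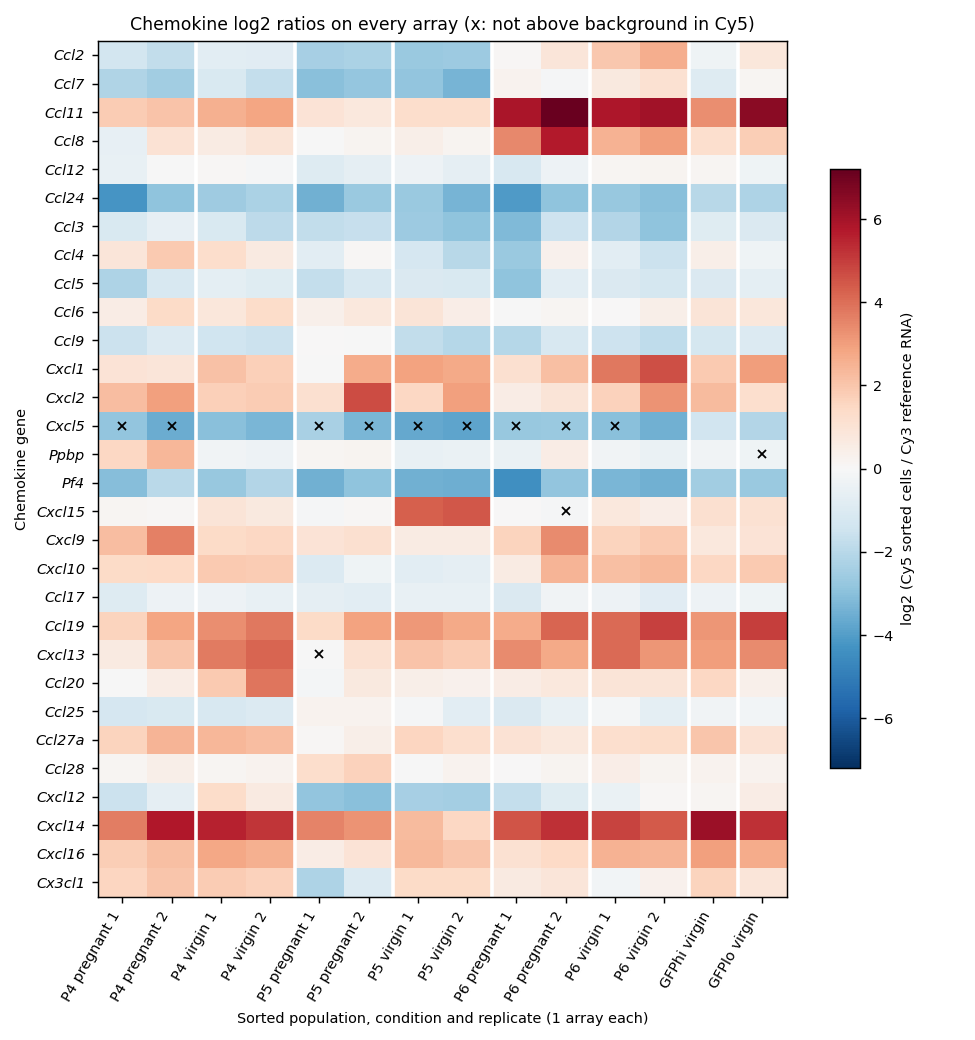
Log2 ratio of each of the 30 tested chemokines (vertical, ordered by role) on each of the 14 arrays (horizontal, by population, condition and replicate), as colour from blue (below the reference RNA) to red (above it). Crosses mark values not above background in Cy5; Ccl11 is reddest in P6 and GFPlo, and Cxcl15 is red on both virgin P5 arrays, where it measured 4.30 and 4.46.

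Ccl2, Ccl7 and Ccl11 were called lower in P4 and in P5 than in P6 in both conditions, and Ccl8 in each of these comparisons but virgin P4 minus P6. Ccl2 and Ccl7 recruit monocytes through Ccr2, Ccl11 (eotaxin) recruits eosinophils through Ccr3, and Ccl8 is a further monocyte chemoattractant protein. Their probes neighbour each other on chromosome 11 of the mm7 build named in the file headers: Ccl2 at chr11:82118723-82118782, Ccl7 at chr11:82128729-82128788, Ccl11 at chr11:82144145-82144204 and Ccl8 at chr11:82198181-82198240, all on the plus strand. The probe of Ccl12, at chr11:82184783-82184842 between the last pair, was not called in any of the 9 comparisons without a block. Ccl24, another ligand of Ccr3, averaged -3.59 in pregnant P4 and -3.51 in pregnant P6, and -2.43 in virgin P4 and -2.87 in virgin P6, and neither difference was called.

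Ccl2 measured -1.34 and -1.78 in pregnant P4 and -0.74 and -0.84 in virgin P4. In P5 it was -2.40 and -2.30 in pregnant mice and -2.69 and -2.62 in virgin mice. In P6 it was 0.068 and 0.85 in pregnant mice and 1.94 and 2.63 in virgin mice. Every P6 array thus lay above every P4 array, and every P4 array above every P5 array. The pregnant P5 minus P6 difference was -2.81 ± 0.30 (SE, adjusted p = 2.07e-04), and the virgin one was -4.94 ± 0.30 (SE, adjusted p = 1.35e-05), a 30.7-fold lower ratio in P5. Pregnant P4 minus P6 gave -2.02 ± 0.30 (SE, adjusted p = 0.00250), virgin P4 minus P6 gave -3.08 ± 0.30 (SE, adjusted p = 3.02e-04), and virgin P4 minus P5 gave 1.87 ± 0.30 (SE, adjusted p = 0.00444). All of these calls were kept whichever single array was left out, and with median centring the virgin P4 minus P5 and pregnant P4 minus P6 calls were lost.

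Ccl7 followed the same order of populations. It was -2.16 and -2.52 in pregnant P4 against -1.08 and -1.73 in virgin P4. In P5 it was -3.03 and -2.81 in pregnant mice and -2.86 and -3.35 in virgin mice, and in P6 0.27 and -0.10 in pregnant mice and 0.69 and 1.07 in virgin mice. The lowest P6 array lay above the highest array of P4 and P5. The P5 minus P6 difference was -3.01 ± 0.28 (SE, adjusted p = 9.95e-05) in pregnant mice and -3.99 ± 0.28 (SE, adjusted p = 2.71e-05) in virgin mice. P4 minus P6 was -2.43 ± 0.28 (SE, adjusted p = 6.31e-04) in pregnant mice and -2.29 ± 0.28 (SE, adjusted p = 0.00106) in virgin mice, and virgin P4 minus P5 was 1.70 ± 0.28 (SE, adjusted p = 0.00507). A second Ccl7 probe gave P5 minus P6 differences of -2.38 in pregnant mice and -3.53 in virgin mice. With median centring the Ccl7 calls in P4 minus P6 and in virgin P4 minus P5 were lost.

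Ccl11 had the widest range of group means of the 30 chemokines, 5.62 on the log2 scale. It was 1.84 and 2.05 in pregnant P4 and 2.54 and 2.86 in virgin P4. It was 0.99 and 0.78 in pregnant P5 and 1.27 and 1.25 in virgin P5. In P6 it reached 5.89 and 7.13 in pregnant mice and 5.85 and 6.05 in virgin mice, with no overlap with either other population. The pregnant P5 minus P6 difference was -5.62 ± 0.34 (SE, adjusted p = 1.17e-05), 49.2-fold lower in P5, and the virgin one was -4.69 ± 0.34 (SE, adjusted p = 3.45e-05). P4 minus P6 was -4.56 ± 0.34 (SE, adjusted p = 7.21e-05) in pregnant mice and -3.25 ± 0.34 (SE, adjusted p = 4.79e-04) in virgin mice.

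The reference channel moved with the Ccl11 signal and was above background at this spot on 5 of 14 arrays. On the other arrays the Ccl11 ratio has no measured reference level, so the size of its differences is uncertain. The reference RNA was the same on all arrays, yet its Cy3 intensity at the Ccl11 spot was 313 and 133 on the pregnant P6 arrays, 137 and 162 on the virgin P6 arrays and 69.0 on the GFPlo array, and 30.9 to 36.9 on the other 9 arrays. With Cy5 alone, in an alternative added after the data were seen, pregnant P5 minus P6 was -7.45 and virgin P4 minus P6 was -4.53, both larger than in the ratios. With the scanner's own log ratio, pregnant P4 minus P6 was -1.85 (adjusted p = 0.0577), and virgin P4 minus P6 was 0.0056 (adjusted p = 0.999), so both calls were lost. The cause of that change was not tested. Virgin P4 minus P5 was 1.44 ± 0.34 (SE, adjusted p = 0.0293), a call lost without either virgin P4 array or either virgin P5 array (adjusted p up to 0.185).

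Ccl8 measured -0.60 and 1.01 in pregnant P4 and 0.62 and 0.94 in virgin P4. In P5 it was -0.0026 and 0.22 in pregnant mice and 0.41 and 0.18 in virgin mice. In P6 it was 3.48 and 5.71 in pregnant mice and 2.53 and 3.03 in virgin mice, above all P4 and P5 arrays. Pregnant P5 minus P6 was -4.49 ± 0.70 (SE, adjusted p = 0.00173) and pregnant P4 minus P6 was -4.39 ± 0.70 (SE, adjusted p = 0.00374). Virgin P5 minus P6 was -2.48 ± 0.70 (SE, adjusted p = 0.0448), a call kept in 4 of 12 single-array removals (adjusted p up to 0.194) and lost without the filter on dim probes. Pregnant P6 lay above virgin P6 on both arrays, but the difference of 1.82 ± 0.70 (SE, adjusted p = 0.573) was not called.

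**Figure D2:**
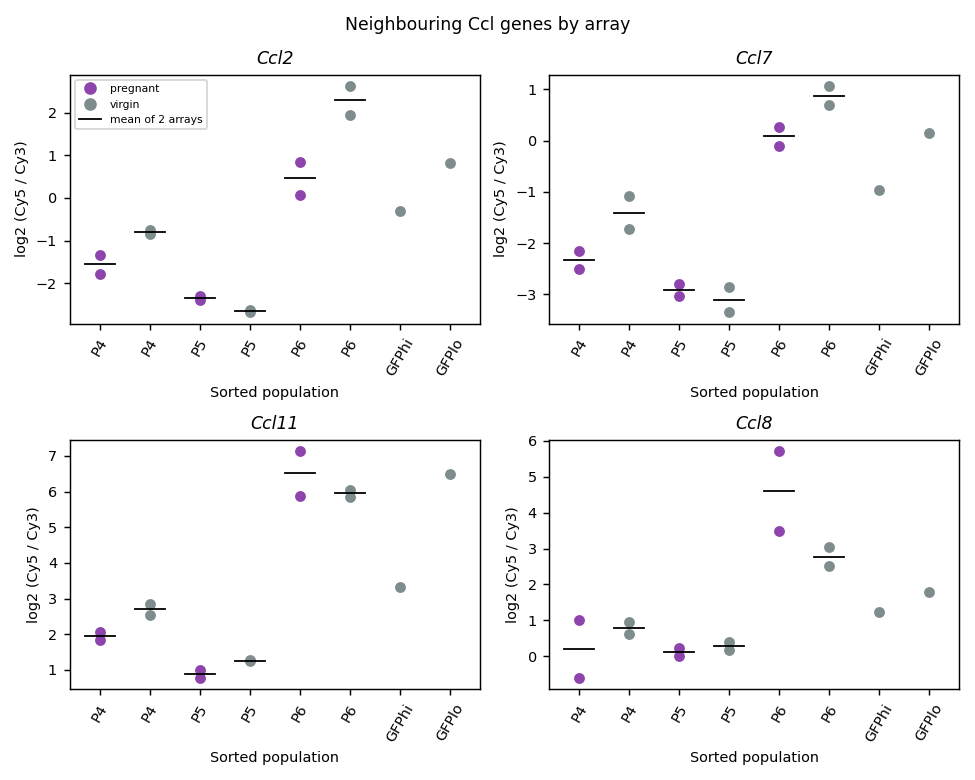
Log2 ratio (vertical) of Ccl2, Ccl7, Ccl11 and Ccl8 on each array by sorted population (horizontal), pregnant arrays in purple and virgin arrays in grey, with a line at the mean of 2 arrays. In all 4 panels the P6 arrays lie above the P4 and P5 arrays of both conditions, and Ccl11 in GFPlo, at 6.50, lies within the range of P6.

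The other chromosome 11 cluster, with Ccl5, Ccl9, Ccl6, Ccl3 and Ccl4, had no member called higher in P6. The fibroblast list described above moved with Ccl2, Ccl7, Ccl11 and Ccl8, and its part in these differences was not tested. Of 22 leukocyte markers, 4 were higher (Cd14, C1qa, Cd2 and Cd3e) and 2 lower (Fcgr3 and Aif1) in pregnant P5 than in pregnant P6. In virgin mice 1 was higher (Cd14) and 1 lower (Aif1) in P5 than in P6. Among all genes, 13.7% were higher and 13.2% lower in the pregnant comparison, and 7.3% and 8.83% in the virgin one. Between P4 and P6, 1 leukocyte marker was higher in pregnant P4, against 6.21% of all genes. None was called in virgin mice, where 4.9% of all genes were higher and 5.49% lower. Pericyte markers were lower in P5 than in P6 for 5 of 8 in pregnant mice and 4 of 8 in virgin mice, among them Pdgfrb. The shares of all genes lower there were 13.2% and 8.83%. The part of the leukocyte and pericyte markers was not tested.

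Among the populations of pregnant mice, P4 minus P5 had 10 of 30 chemokines called, 7 higher and 3 lower, where 22.6% of all genes were called, 11.7% higher and 10.9% lower. P4 minus P6 had 6 called, 2 higher and 4 lower, against 12.1%, 6.21% higher and 5.87% lower. P5 minus P6 had 11 called, 3 higher and 8 lower, against 26.9%, 13.7% higher and 13.2% lower.

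In virgin P4 minus P5, 9 of 30 were called (30.0%), 8 higher and 1 lower, where 11.4% of all genes were called, 6.57% higher and 4.78% lower. The count was 4 without virgin P5 replicate 2 and 5 without each of the other arrays of virgin P4 and P5. In virgin P4 minus P6, 4 were called, 1 higher and 3 lower, against 10.4% of all genes, 4.9% higher and 5.49% lower. In virgin P5 minus P6, 9 were called, 2 higher and 7 lower, against 16.1% of all genes, 7.3% higher and 8.83% lower. The median difference over the 30 genes was 0.58 in virgin P4 minus P5, against 0.033 over all genes, and -0.39 in virgin P5 minus P6, against -0.0014. With the replicate number as a block within each condition, the counts were 15 in pregnant P4 minus P6, 15 in virgin P4 minus P5 and 12 in virgin P4 minus P6. The share of all genes called with that block is not given here, so these counts show no rise particular to chemokines. For pregnant minus virgin, the block takes the deviation shared by arrays of a replicate out of the spread. Its p-values there may be too small.

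Several homeostatic and interferon-induced ligands were higher in P4 than in P5. Cxcl12 guides cells bearing Cxcr4, Cxcl13 attracts B cells through Cxcr5, Ccl20 draws Ccr6-bearing cells, Cxcl14 is a ligand made by many epithelia, and Cxcl9 and Cxcl10 are interferon-induced ligands of Cxcr3. All but Cxcl9 were called higher in P4 than in P5 in virgin mice. Of 12 endothelial markers, 8 were higher in P4 than in P5 in pregnant mice and 3 in virgin mice. Of 8 pericyte markers, 5 were higher in P4 in pregnant mice and 3 in virgin mice. No marker of either list was lower, and 11.7% and 6.57% of all genes were higher in these comparisons. The part of these lists in the ligand differences was not tested.

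Cxcl12 measured -1.52 and -0.63 in pregnant P4 and 1.32 and 0.67 in virgin P4. In P5 it was -2.85 and -3.02 in pregnant mice and -2.40 and -2.44 in virgin mice, and in P6 -1.72 and -0.87 in pregnant mice and -0.46 and 0.074 in virgin mice. P5 was the lowest population in both conditions, with no overlap. P4 minus P5 was 1.86 ± 0.38 (SE, adjusted p = 0.00909) in pregnant mice and 3.41 ± 0.38 (SE, adjusted p = 7.40e-04) in virgin mice, 10.7-fold. P5 minus P6 was -1.64 ± 0.38 (SE, adjusted p = 0.0131) in pregnant mice and -2.23 ± 0.38 (SE, adjusted p = 0.00406) in virgin mice. The pregnant calls were lost without replicate 2 of pregnant P5 and without replicate 2 of the other population compared (adjusted p up to 0.0734).

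A second Cxcl12 probe, for another RefSeq transcript named in the files, gave another order. It measured -2.41 and -3.67 in pregnant P4, -2.48 and -2.54 in virgin P4, 2.04 and -0.10 in pregnant P6 and -0.65 and -0.49 in virgin P6. By this probe pregnant P4 minus P6 was -4.01 (adjusted p = 0.00353), where the brighter probe gave 0.22 (adjusted p = 0.882). Both probes had virgin P5 below virgin P6, with -3.92 by the second probe.

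Cxcl14 measured 3.70 and 5.77 in pregnant P4 and 5.56 and 5.13 in virgin P4. It was 3.59 and 3.21 in pregnant P5 and 2.28 and 1.48 in virgin P5, and 4.53 and 5.28 in pregnant P6 and 4.86 and 4.44 in virgin P6. The virgin P5 arrays were the lowest of all. Virgin P4 minus P5 was 3.46 ± 0.61 (SE, adjusted p = 0.00728) and virgin P5 minus P6 was -2.77 ± 0.61 (SE, adjusted p = 0.0144). The first call was lost without virgin P4 replicate 1 or virgin P5 replicate 2 (adjusted p up to 0.0623), and the second without virgin P5 replicate 2 or either virgin P6 array (up to 0.108).

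For Cxcl14, as for Ccl11, the Cy3 intensity followed the Cy5 intensity. Cy5 was 71636 and 86743 in virgin P4 and 797 and 517 in virgin P5, while Cy3 was 1834 and 2538 in virgin P4 and 112 and 119.8 in virgin P5. With Cy5 alone, virgin P4 minus P5 was 7.16 (adjusted p = 8.21e-05), over 1.5 times the difference of the ratios. The spot was saturated on pregnant P4 replicate 1, so its level there is a lower bound in Cy5. Pregnant P4 minus P5 rests on that spot, with 1.33 in the ratios, which was not called, and 4.94 with Cy5 alone (adjusted p = 3.42e-04).

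Cxcl10 measured 1.38 and 1.42 in pregnant P4 and 1.88 and 1.85 in virgin P4. In P5 it was -1.01 and -0.32 in pregnant mice and -0.77 and -0.67 in virgin mice, and in P6 0.57 and 2.42 in pregnant mice and 2.19 and 2.35 in virgin mice. All 4 P5 arrays lay below zero and all P4 and P6 arrays above it. P4 minus P5 was 2.06 ± 0.50 (SE, adjusted p = 0.0183) in pregnant mice and 2.59 ± 0.50 (SE, adjusted p = 0.0110) in virgin mice. P5 minus P6 was -2.16 ± 0.50 (SE, adjusted p = 0.0122) in pregnant mice and -2.99 ± 0.50 (SE, adjusted p = 0.00339) in virgin mice. Only the virgin P5 minus P6 call was kept whichever array was left out; the virgin P4 minus P5 call was lost without any of its own 4 arrays (adjusted p up to 0.0699), the pregnant one without pregnant P5 replicate 1 or either pregnant P4 array (up to 0.0972), and pregnant P5 minus P6 without pregnant P5 replicate 1 (0.0740). Both pregnant calls were lost with Cy5 alone.

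Its interferon-induced partner Cxcl9 measured 2.24 and 3.64 in pregnant P4 and 0.96 and 1.13 in pregnant P5. The difference of 1.90 ± 0.57 (SE, adjusted p = 0.0449) was kept in 3 of 12 single-array removals, and lost with the scanner's log ratio and without the filter on dim probes. In virgin mice Cxcl9 was 1.38 and 1.49 in P4 and 0.61 and 0.59 in P5, which was not called. P6 had 1.61 and 3.40 in pregnant mice and 1.59 and 1.90 in virgin mice. Of 20 interferon response genes, 4 were higher in pregnant P4 than in pregnant P5 (Irf1, Ifit1, Oasl2 and Gbp2). In virgin mice none of the 20 was higher and 1 was lower (Psmb8). Among all genes, 11.7% were higher and 10.9% lower in the pregnant comparison, and 6.57% and 4.78% in the virgin one. In P5 against P6, 9 of the 20 were lower and 1 higher in pregnant mice, and 5 were lower and 1 higher in virgin mice. There 13.2% of all genes were lower and 13.7% higher in pregnant mice, and 8.83% and 7.3% in virgin mice.

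The 250 bases before the first listed start of Cxcl10 and Cxcl14, the members lowest in virgin P5 that hold an interferon-type element, are shown from RefSeq on GRCm38.p6, which had such a stretch for 24 of the 33 chemokines. They were searched on both strands for an NF-kB motif (GGGA and TTCC with 2 bases of any kind between). Searched likewise were an interferon-type element (GAAA and GAAA with 2 such bases between) and a STAT motif (TTCNNNGAA). On the gene's strand they were searched for the letters TATAAA at any position. Capitals mark matches. In Cxcl10 these are an interferon-type element and an NF-kB motif, and in Cxcl14 a STAT motif and an interferon-type element.
Cxcl10 (chr5:92348890-92349139, minus strand): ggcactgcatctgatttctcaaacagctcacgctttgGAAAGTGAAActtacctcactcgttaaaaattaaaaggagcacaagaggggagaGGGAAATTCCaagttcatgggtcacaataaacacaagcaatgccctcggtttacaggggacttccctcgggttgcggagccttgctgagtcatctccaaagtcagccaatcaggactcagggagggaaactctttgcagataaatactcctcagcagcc
Cxcl14 (chr13:56296552-56296801, minus strand): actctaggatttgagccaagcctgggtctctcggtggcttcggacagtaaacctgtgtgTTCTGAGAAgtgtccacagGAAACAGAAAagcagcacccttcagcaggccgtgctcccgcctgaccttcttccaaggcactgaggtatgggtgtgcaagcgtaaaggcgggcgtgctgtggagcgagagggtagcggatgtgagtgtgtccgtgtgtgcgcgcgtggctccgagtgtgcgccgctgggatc
The interferon-type element was found in 3 of the 24 chemokines (Ccl19, Cxcl10 and Cxcl14), against 3.04% of 27025 promoters of all genes. The NF-kB motif was found in 4 (Ccl1, Cxcl1, Cxcl10 and Cxcl2), against 1.17%, and in Ccl1, Cxcl1 and Cxcl2 the matches on the 2 strands overlapped each other. The STAT motif was found in 2 (Ccl17 and Cxcl14), against 7.18%.

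Cxcl13 measured 0.64 and 2.00 in pregnant P4 and 3.74 and 4.16 in virgin P4. It was -0.0029 and 1.10 in pregnant P5, where only replicate 2 was above background, and 2.05 and 1.84 in virgin P5. In P6 it was 3.40 and 2.73 in pregnant mice and 4.09 and 3.19 in virgin mice. Virgin P4 lay above virgin P5 without overlap, by 2.01 ± 0.53 (SE, adjusted p = 0.0452), a call kept in 6 of 12 single-array removals and lost with Cy5 alone (adjusted p = 0.0631), the scanner's log ratio, median centring and no filter on dim probes. Pregnant P5 minus P6 was -2.52 ± 0.53 (SE, adjusted p = 0.00822), lost without pregnant P5 replicate 1 or pregnant P6 replicate 1 (adjusted p up to 0.0544) and without the arrays of scan 3.

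Ccl20 was -0.043 and 0.55 in pregnant P4 and 1.90 and 3.83 in virgin P4. It was -0.16 and 0.72 in pregnant P5, 0.40 and 0.33 in virgin P5, 0.52 and 0.75 in pregnant P6 and 0.94 and 0.93 in virgin P6. Only the 2 virgin P4 arrays stood apart, and they differed from each other more than the arrays of any other group. Virgin P4 minus P5 was 2.50 ± 0.55 (SE, adjusted p = 0.0207), lost without virgin P4 replicate 2 or either virgin P5 array (adjusted p up to 0.110).

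Cxcl12, Cxcl13 and Ccl20 were lower in P4 of pregnant mice than of virgin mice, and Ppbp was higher. In pregnant P4 minus virgin P4, 5 of 30 chemokines were called, 1 higher and 4 lower, where 3.78% of all genes were called, 1.48% higher and 2.29% lower. The median over the 30 genes was -0.38, against -0.030 over all genes, and 22 of 30 differences were negative.

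On the log2 scale Cxcl13 changed by -2.63 ± 0.53 (SE, adjusted p = 0.0341), 6.20-fold lower in pregnant P4. Ccl20 changed by -2.61 ± 0.55 (SE, adjusted p = 0.0396), 6.11-fold lower. Cxcl12 changed by -2.07 ± 0.38 (SE, adjusted p = 0.0249), 4.20-fold lower, while its second probe gave -0.53 (adjusted p = 0.778). For each gene both pregnant arrays lay below both virgin arrays. Within the scan batch that held both conditions, which is the replicate 2 pair, the differences were -2.16 for Cxcl13, -3.28 for Ccl20 and -1.30 for Cxcl12.

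Cxcl15 was the fourth call downwards in P4, with 0.14 and 0.088 in pregnant P4 and 0.92 and 0.73 in virgin P4, a difference of -0.71 ± 0.15 (SE, adjusted p = 0.0410) and of -0.64 in the replicate 2 pair. All 4 calls downwards were lost with the slide as a block (adjusted p = 0.151 for Cxcl13, 0.0727 for Ccl20, 0.0977 for Cxcl12 and 0.116 for Cxcl15), with median centring and without the arrays of scan 3. With the scanner's log ratio the Cxcl12 call was kept (adjusted p = 0.0405) and the other three were lost, and the Cxcl13 call was lost with Cy5 alone (adjusted p = 0.0508). Leaving out 1 array kept the call of Cxcl12 in 9, of Cxcl13 in 7, of Cxcl15 in 2 and of Ccl20 in 1 of 12 single-array removals, with adjusted p up to 0.271. The count of 5 became 0 without virgin P4 replicate 2, 1 without virgin P4 replicate 1 or pregnant P4 replicate 1, 2 without either virgin P5 array, 3 without any other pregnant array and 4 without either virgin P6 array. With the replicate number as a block it was 10, by p-values that leave out the deviation shared within a replicate.

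Ppbp, the platelet basic protein and a neutrophil attractant, was the 1 chemokine called higher in pregnant P4 without a block. It measured 1.51 and 2.39 in pregnant P4 and -0.27 and -0.35 in virgin P4. In P5 it was 0.16 and 0.18 in pregnant mice and -0.53 and -0.46 in virgin mice, and in P6 -0.46 and 0.53 in pregnant mice and -0.27 and -0.48 in virgin mice. The 2 pregnant P4 arrays were the highest of all. The pregnancy effect was 2.26 ± 0.34 (SE, adjusted p = 0.0124), 4.79-fold, and 2.74 within the scan batch that held both conditions. It held with the slide as a block (adjusted p = 0.00759) and was lost without either virgin P4 array (adjusted p up to 0.0953). Cxcl9 differed by 1.51 ± 0.57 (SE, adjusted p = 0.235) in the same comparison, and was called there with Cy5 alone (adjusted p = 0.0429), the scan block (0.0235) and the replicate block (0.0199).

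In pregnant mice Ppbp was also higher in P4 than in P5, by 1.78 ± 0.34 (SE, adjusted p = 0.00696), and than in P6, by 1.92 ± 0.34 (SE, adjusted p = 0.00702). Pf4, the other platelet chemokine and, like Ppbp, a ligand stored in platelets, was -3.08 and -1.93 in pregnant P4 and -2.72 and -2.12 in virgin P4, which overlapped. Lep, an adipocyte marker, was the 1 of 8 genes of its list called higher in pregnant than in virgin P4, at 4.05 on the log2 scale. There 1.48% of all genes were higher. The mean of the adipocyte list was 2.75 to 4.04 in pregnant P4 and 1.55 to 1.75 in virgin P4, and its part in the Ppbp difference was not tested.

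**Figure D3:**
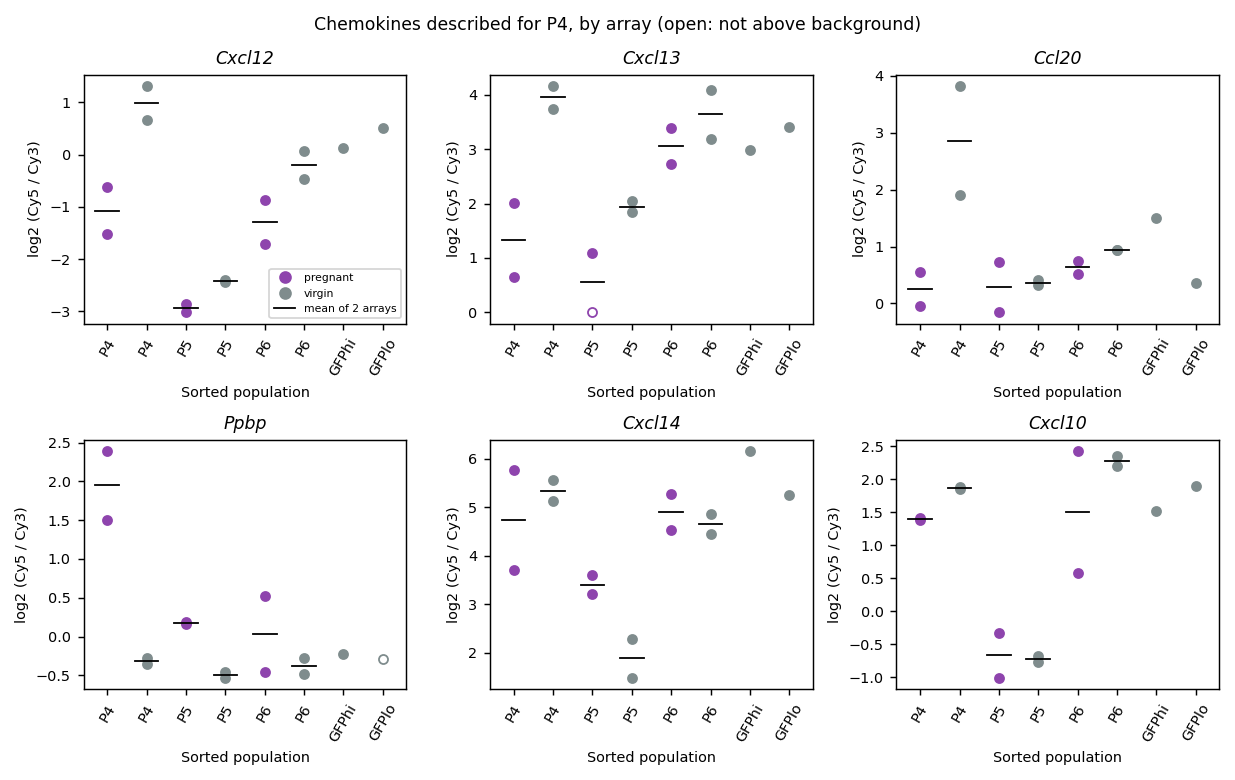
Log2 ratio (vertical) on each array by sorted population (horizontal) for Cxcl12, Cxcl13, Ccl20, Ppbp, Cxcl14 and Cxcl10, pregnant in purple and virgin in grey, with a line at the mean of 2 arrays and open circles where the probe was not above background. Cxcl12, Cxcl13 and Ccl20 lie lower in pregnant P4 than in virgin P4, Ppbp lies higher, and Cxcl10 is below zero on the P5 arrays alone.

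In P5, Cxcl15, Cx3cl1, Cxcl16 and Ccl27a fell in pregnant mice and Ccl9 and Ccl28 rose. In pregnant P5 minus virgin P5, 6 of 30 chemokines were called (20.0%), 2 higher and 4 lower, close to the 21.5% of all genes called, 10.7% higher and 10.8% lower. The median over the 30 genes was -0.065, against 0.041 over all genes. With the replicate number as a block the count was 12, by p-values that leave out the deviation shared within a replicate. Beside these counts, 11 of 13 luminal markers and 7 of 8 skeletal muscle markers were lower in pregnant than in virgin P5, and their part in the chemokine counts was not tested.

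Cxcl15, known as lungkine and described in mouse as an airway epithelial neutrophil attractant, measured -0.092 and 0.076 in pregnant P5 and 4.30 and 4.46 in virgin P5. Its raw Cy5 intensity was 61.9 and 53.6 in pregnant P5 and 1909 and 3182 in virgin P5. In P6 it was 0.0092 and -0.10 in pregnant mice, with replicate 2 not above background, and 0.76 and 0.47 in virgin mice. The 2 virgin P5 arrays were therefore alone, more than 3 log2 units above each other array. The pregnancy effect in P5 was -4.39 ± 0.15 (SE, adjusted p = 3.37e-06), 20.9-fold lower. It was -4.39 in the replicate 1 pair and -4.38 in the replicate 2 pair. A second probe was not above background on either pregnant P5 array, so it gave no measured size of the fall.

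In virgin mice Cxcl15 differed by -3.55 ± 0.15 (SE, adjusted p = 9.65e-06) in P4 minus P5 and by 3.76 ± 0.15 (SE, adjusted p = 2.34e-06) in P5 minus P6. Skeletal muscle markers were also high in virgin P5, with a mean log2 ratio of 2.79 to 2.89, against 0.016 to 0.24 in virgin P4 and 0.055 to 0.20 in virgin P6. On the GFP arrays the muscle list was at 2.11 in GFPhi and 0.70 in GFPlo, while Cxcl15 was 1.13 in GFPhi and 1.08 in GFPlo. Luminal markers averaged 4.42 to 4.47 in virgin P5. The part of either list in the Cxcl15 difference was not tested.

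Cx3cl1 (fractalkine), a membrane-anchored ligand of Cx3cr1 that is shed from epithelium and endothelium, was the other large fall. It measured -2.23 and -0.98 in pregnant P5 and 1.35 and 1.38 in virgin P5. In P4 it was 1.55 and 2.02 in pregnant mice and 1.82 and 1.69 in virgin mice, and in P6 0.64 and 0.88 in pregnant mice and -0.18 and 0.28 in virgin mice. The pregnant P5 arrays were the lowest of all, without overlap. The pregnancy effect was -2.97 ± 0.37 (SE, adjusted p = 9.18e-04), 7.84-fold lower, and -2.36 within the scan batch that held both conditions.

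Among populations, pregnant P4 minus P5 of Cx3cl1 was 3.39 ± 0.37 (SE, adjusted p = 4.04e-04) and pregnant P5 minus P6 was -2.37 ± 0.37 (SE, adjusted p = 0.00168). In virgin mice the order of P5 and P6 was the other way round. Virgin P4 minus P6 was 1.70 ± 0.37 (SE, adjusted p = 0.0203), lost without either virgin P4 array or virgin P6 replicate 1 (adjusted p up to 0.126). Virgin P5 minus P6 was 1.31 ± 0.37 (SE, adjusted p = 0.0435), kept in 2 of 12 single-array removals and lost without the filter on dim probes. With median centring the virgin P4 minus P6 call was lost. A second Cx3cl1 probe was above background on 5 of 14 arrays and gave no call.

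Cxcl16, also a membrane-anchored ligand, which binds Cxcr6, was 0.54 and 0.96 in pregnant P5 and 2.31 and 2.00 in virgin P5. In P4 it was 1.76 and 2.16 in pregnant mice and 2.77 and 2.53 in virgin mice, and in P6 1.08 and 1.46 in pregnant mice and 2.52 and 2.43 in virgin mice. By this brighter probe pregnant arrays lay below virgin arrays in all 3 populations, and without a block the effect was called in P5 alone, at -1.40 ± 0.22 (SE, adjusted p = 0.00294), and -1.04 in the replicate 2 pair. It was -0.69 in P4 (adjusted p = 0.155, and 0.00499 with the replicate block) and -1.20 in P6 (adjusted p = 0.108, and 0.00356 with the block). The p-values with the block leave out the deviation shared within a replicate. A second probe gave no call in these comparisons and overlapped in P4, with 1.86 and 3.33 in pregnant P4 and 3.05 and 3.09 in virgin P4, and its P5 difference was -1.27 (adjusted p = 0.211). By the brighter probe the F test of a difference among the 3 effects gave an adjusted p of 0.379. Pregnant P4 minus P5 was 1.21 ± 0.22 (SE, adjusted p = 0.00522).

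Ccl27a, a skin-type ligand of Ccr10 with near-identical copies in the mouse genome, was 0.075 and 0.43 in pregnant P5 and 1.54 and 1.21 in virgin P5. In P4 it was 1.58 and 2.47 in pregnant mice and 2.37 and 2.24 in virgin mice, and in P6 1.04 and 0.77 in pregnant mice and 1.22 and 1.31 in virgin mice. P5 fell below every other group in pregnancy. The effect was -1.12 ± 0.28 (SE, adjusted p = 0.0234), and -0.77 in the replicate 2 pair. Its call was lost with median centring, with the slide as a block (adjusted p = 0.768) and without either virgin P5 array or pregnant P5 replicate 1 (up to 0.149). Pregnant P4 minus P5 was 1.77 ± 0.28 (SE, adjusted p = 0.00257), and pregnant P4 minus P6 was 1.11 ± 0.28 (SE, adjusted p = 0.0346), kept in 3 of 12 single-array removals and lost with median centring and with the slide as a block.

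Ccl28, the other ligand of Ccr10 and an attractant of antibody-secreting cells in mucosal glands, rose in pregnant P5. It measured 1.26 and 1.65 in pregnant P5 and -0.041 and 0.24 in virgin P5. In P4 it was 0.15 and 0.41 in pregnant mice and 0.12 and 0.26 in virgin mice, and in P6 0.011 and 0.19 in pregnant mice and 0.46 and 0.21 in virgin mice. The 2 pregnant P5 arrays stood above the other 10, which overlapped among themselves.

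The pregnancy effect on Ccl28 in P5 was 1.36 ± 0.19 (SE, adjusted p = 0.00165), 2.56-fold, and 1.41 within the shared scan batch. Its signal is dim, with raw Cy5 intensities of 313 and 212 in pregnant P5 and 67.6 and 85.1 in virgin P5, so the background offset understates the fold, and the scanner's log ratio gave 2.77. Pregnant P4 minus P5 was -1.17 ± 0.19 (SE, adjusted p = 0.00282) and pregnant P5 minus P6 was 1.36 ± 0.19 (SE, adjusted p = 9.59e-04). Each of these calls was kept whichever array was left out.

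Ccl9, a myeloid cell attractant acting through Ccr1, also rose. It measured 0.0024 and -0.055 in pregnant P5 and -1.78 and -2.05 in virgin P5. In P4 it was -1.52 and -0.997 in pregnant mice and -1.42 and -1.53 in virgin mice, and in P6 -2.04 and -1.15 in pregnant mice and -1.51 and -1.81 in virgin mice. Again the 2 pregnant P5 arrays were the highest, and virgin P5 had the lowest mean. The effect was 1.89 ± 0.29 (SE, adjusted p = 0.00262), 3.70-fold, and 1.99 in the replicate 2 pair. Pregnant P5 minus P6 was 1.57 ± 0.29 (SE, adjusted p = 0.00425), and pregnant P4 minus P5 was -1.23 ± 0.29 (SE, adjusted p = 0.0167), lost without pregnant P4 replicate 1 or either pregnant P5 array (adjusted p up to 0.108). With median centring both population calls of Ccl9 were lost.

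Of 22 leukocyte markers, 3 were higher in pregnant than in virgin P5 (C1qa, Cd3e and Cd2), against 10.7% of all genes. None was lower, against 10.8% of all genes. The mean of the 22 was -0.47 to -0.18 in pregnant P5 and -0.68 to -0.60 in virgin P5, and all 22 were above background in both. Their part in the rise of Ccl9 and Ccl28 was not tested. Ccl25, a thymus and gut ligand of Ccr9, was 0.25 and 0.27 in pregnant P5, against -1.20 and -1.09 in pregnant P4 and -1.02 and -0.51 in pregnant P6. In virgin mice it was -1.15 and -1.001 in P4, -0.071 and -0.77 in P5 and -0.12 and -0.70 in P6.

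Pregnant P5 thus lay above all other groups for Ccl25. Pregnant P4 minus P5 of Ccl25 was -1.41 ± 0.28 (SE, adjusted p = 0.00762). Pregnant P5 minus P6 was 1.03 ± 0.28 (SE, adjusted p = 0.0256), lost without either pregnant P5 array or pregnant P6 replicate 1 (adjusted p up to 0.144). Both calls were lost with median centring and without the arrays of scan 3. A second Ccl25 probe, above background on 10 of 14 arrays, gave -0.18 in pregnant P4 minus P5 (adjusted p = 0.729) and 0.27 in pregnant P5 minus P6 (adjusted p = 0.563).

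**Figure D4:**
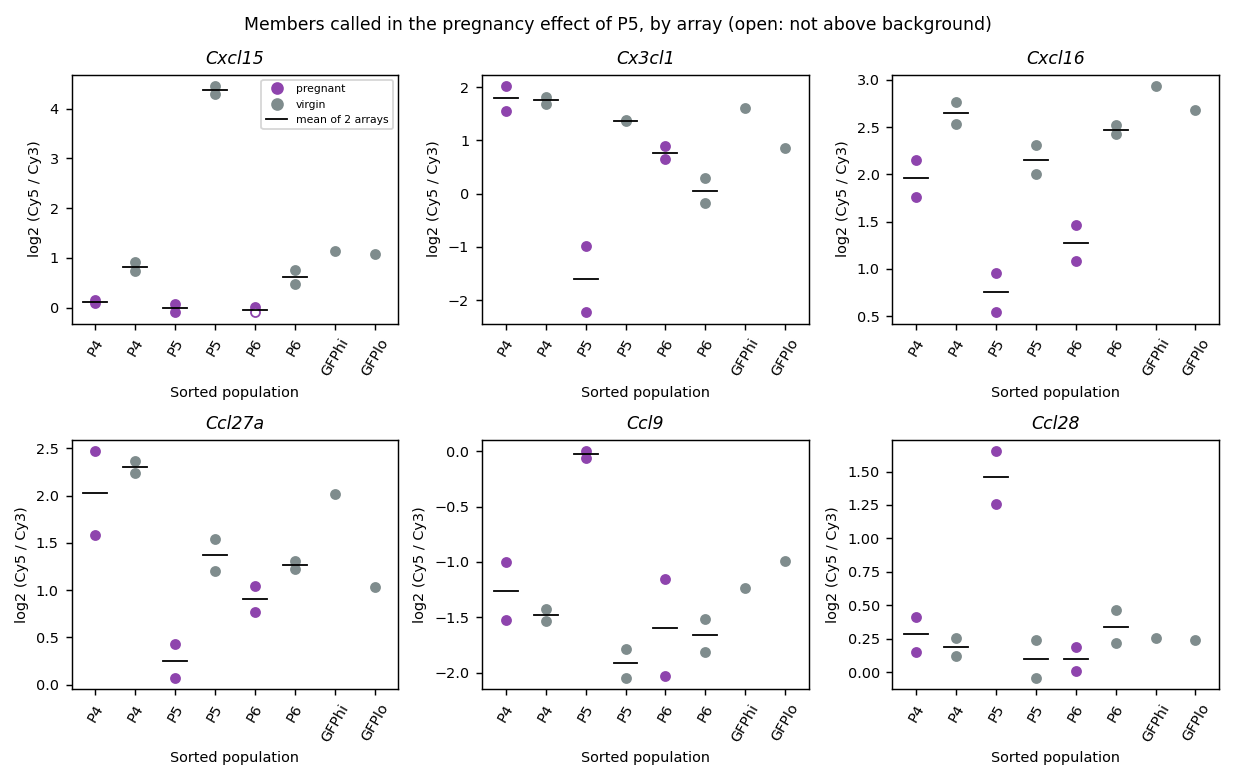
Log2 ratio (vertical) on each array by sorted population (horizontal) for the 6 chemokines called between pregnant and virgin P5, pregnant in purple and virgin in grey, with a line at the mean of 2 arrays and an open circle where the probe was not above background. Cxcl15, Cx3cl1, Cxcl16 and Ccl27a lie lower in pregnant P5 than in virgin P5, and Ccl9 and Ccl28 lie higher.

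The bases before the start of the pair that fell most in pregnant P5 (Cxcl15 and Cx3cl1) and of the pair that rose (Ccl28 and Ccl9) are set beside each other from the same table. Capitals mark a match of TATAAA, the only 1 of the motifs named above with a match in these stretches.
Cxcl15 (chr5:90794284-90794533, plus strand): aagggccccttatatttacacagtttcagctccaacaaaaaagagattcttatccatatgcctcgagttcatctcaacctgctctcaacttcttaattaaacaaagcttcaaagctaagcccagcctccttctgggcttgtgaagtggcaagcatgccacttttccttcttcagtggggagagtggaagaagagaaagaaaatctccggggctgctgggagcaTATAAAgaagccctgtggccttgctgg
Cx3cl1 (chr8:94771930-94772179, plus strand): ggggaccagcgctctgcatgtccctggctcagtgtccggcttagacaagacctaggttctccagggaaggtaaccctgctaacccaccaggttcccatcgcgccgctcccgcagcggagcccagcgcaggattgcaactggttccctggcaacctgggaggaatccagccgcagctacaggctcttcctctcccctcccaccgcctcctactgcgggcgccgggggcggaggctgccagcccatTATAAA
Ccl28 (chr13:119623569-119623818, plus strand): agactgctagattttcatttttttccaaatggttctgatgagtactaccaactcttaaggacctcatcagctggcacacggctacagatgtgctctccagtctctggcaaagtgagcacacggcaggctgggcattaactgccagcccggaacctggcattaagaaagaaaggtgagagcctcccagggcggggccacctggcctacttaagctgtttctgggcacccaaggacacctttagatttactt
Ccl9 (chr11:83578637-83578886, minus strand): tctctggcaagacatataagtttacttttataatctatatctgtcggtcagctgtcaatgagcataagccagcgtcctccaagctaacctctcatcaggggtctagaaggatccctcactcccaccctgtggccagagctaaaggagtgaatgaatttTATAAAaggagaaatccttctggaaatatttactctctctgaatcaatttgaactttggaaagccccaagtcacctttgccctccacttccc
In Cxcl15 it lies 27 to 22 bases before the listed start, in Cx3cl1 6 to 1 and in Ccl9 92 to 87, and Ccl28 holds none in this window. The letters TATAAA were found, at any position in the window, in 8 of the 24 chemokines, against 8.12% of promoters of all genes.

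In P6, 0 of 30 chemokines were called between pregnant and virgin mice by limma, where 0.186% of all genes were called, 0.0465% higher and 0.14% lower. At an unadjusted p under 0.05 there were 8 of 30, and the share of all genes at that threshold is not given here. With the replicate number as a block 4 were called, namely Ccl2 (adjusted p = 0.0212), Ccl12 (0.0209), Cxcl15 (0.0486) and Cxcl16 (0.00356). These p-values leave out the deviation shared by arrays of a replicate and may be too small. The share of all genes called with the block is not given here either. Neither the 8 nor the 4 therefore shows a change particular to chemokines. The Ccl2 difference was -1.83 ± 0.30 (SE, adjusted p = 0.0731), with both pregnant P6 arrays below both virgin P6 arrays and -1.78 in the replicate 2 pair.

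The pregnancy effect differed among P4, P5 and P6 for 5 of 30 chemokines by limma's F test, where 8.03% of all genes were called, and for 9 with the replicate number as a block. These were Cxcl15, Cx3cl1, Ccl28, Ccl2 and Ccl9. For Cxcl15, Cx3cl1, Ccl28 and Ccl9 the effect in P5 differed from that in P4 and from that in P6, and the effects in P4 and P6 were not distinguished (adjusted p = 1.00 for each). For Ccl2 it was the P5 effect, 0.31, against the P6 effect, -1.83, that differed (adjusted p = 0.0193). The calls of Ccl2 and Ccl9 were lost with the scanner's log ratio. The count of 5 became 2 without virgin P5 replicate 1 or pregnant P5 replicate 2, and 3 without virgin P4 replicate 2, virgin P5 replicate 2, virgin P6 replicate 2 or pregnant P5 replicate 1.

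**Figure D5:**
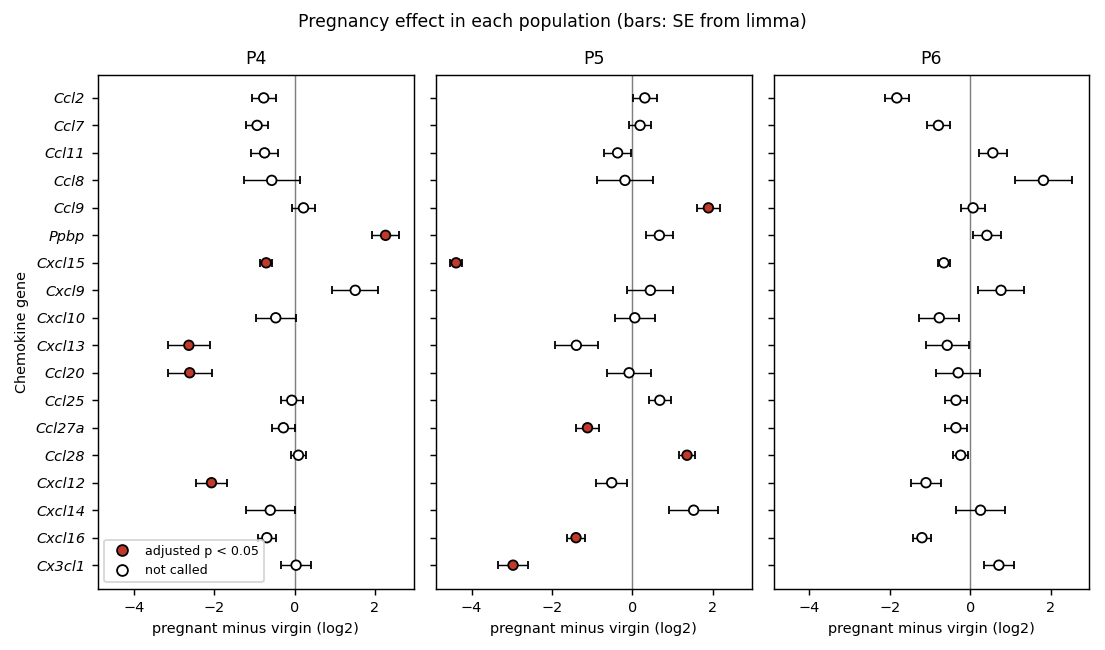
Pregnant minus virgin difference on the log2 scale (horizontal, with bars of 1 SE from limma) in P4, P5 and P6 for the 18 chemokines called in any comparison (vertical, by role). Red points passed the adjusted p threshold: 5 in P4, 6 in P5 and 0 in P6, and Cxcl15 in P5 lies farthest left, at -4.39.

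The 12 chemokines called in none of the 9 comparisons without a block were Ccl12, Ccl17, Ccl19, Ccl24, Ccl3, Ccl4, Ccl5, Ccl6, Cxcl1, Cxcl2, Cxcl5 and Pf4. Their highest and lowest group means differed by 0.23 (Ccl17) to 3.28 (Cxcl1). Cxcl1, a neutrophil attractant, was -0.027 and 2.67 in pregnant P5 and 2.91 and 2.75 in virgin P5. In P6 it was 1.16 and 2.16 in pregnant mice and 3.80 and 4.62 in virgin mice, so the pregnant arrays spread widely. Cxcl2, its close relative, measured 1.13 and 4.68 in pregnant P5 and 1.48 and 2.94 in virgin P5, where the 2 pregnant arrays differed by more than the groups did.

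With the replicate number as a block, 10 of these 12 were called in at least 1 comparison, all but Ccl17 and Ccl5. Ccl4, a macrophage and T cell attractant, ranged between group means of 1.38 in pregnant P4 and -1.60 in virgin P5. Its virgin P4 minus P5 difference was 2.55 ± 0.86 (SE, adjusted p = 0.112), and was called with the replicate block (adjusted p = 0.00526), with the slide as a block (0.00829) and with Cy5 alone (0.0355). Ccl3 differed there by 1.29, with an adjusted p of 0.188 without and 0.0287 with the replicate block. In pregnant minus virgin P4, Ccl24 was at -1.17, with an adjusted p of 0.332 without and 0.0126 with the block. Cxcl5, whose call with the block was between pregnant and virgin P5, was above background on 5 of 14 arrays and on none of the pregnant ones, so its pregnancy effect was not measured.

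Ccl19, a ligand of Ccr7 with near-identical copies in the mouse genome, was an exception by its second probe. That probe was 1.62 and 1.74 in pregnant P4, 3.79 and 4.67 in virgin P4, 3.64 and 5.30 in pregnant P6 and 5.91 and 6.10 in virgin P6. Its pregnancy effect in P4 was -2.55 (adjusted p = 0.0310), where the brighter probe gave -1.37 (adjusted p = 0.384, and 0.0101 with the replicate block). Ccl1, Ccl22 and Cxcl11 were not tested: Ccl22 was above background on 0 arrays and the other two on 1 array each.

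Of 21 chemokine receptors tested, 2 were lower and none higher in pregnant than in virgin P4 (Ccr7 and Ackr1). In P5 Ackr4 was higher and Cxcr4 lower. Among all genes, 2.29% were lower and 1.48% higher in P4, and 10.8% and 10.7% in P5. Cxcr4, the receptor of Cxcl12, was -1.34 to -1.21 in pregnant P5 and 0.47 to 0.59 in virgin P5, a difference of -1.80 (adjusted p = 0.00198). In virgin mice it was lower in P4 than in P5, by -1.03, opposite to the ligand. Ackr2, which binds and removes inflammatory CC chemokines, was 5.45 to 5.99 in pregnant P6 and 5.03 to 6.15 in virgin P6. Its P4 minus P6 difference was -5.62 in pregnant mice and -4.17 in virgin mice, so this scavenger was high in the population that was also high in Ccl2, Ccl7, Ccl11 and Ccl8.

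Ackr3, which scavenges Cxcl12, was 4.03 to 4.15 in pregnant P6 and 4.07 to 4.39 in virgin P6, and P4 minus P5 was 2.26 in pregnant mice and 2.23 in virgin mice. Of 20 NF-kB and inflammatory cytokine genes, 7 were lower and 1 higher in pregnant than in virgin P5, with Nfkb1 at -1.82, Relb at -2.09, Nfkbie at -2.28 and Birc3 at -2.06. In P4, 3 were lower and none higher, with Il6 at -3.42, Icam1 at -2.52 and Birc3 at -1.87. Among all genes, 10.8% were lower and 10.7% higher in that P5 comparison, and 2.29% and 1.48% in the P4 one. Of the chemokine ligands outside the naming rule, Ccl21c was lower in pregnant than in virgin P4, by -2.57.

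Between the 2 GFP arrays, which allow no test, 7 of 30 chemokines differed at least 2-fold, 2 higher and 5 lower in GFPhi, where 3.40% of all genes were higher and 3.01% lower. Higher in GFPhi were Ccl20, at 1.49 in GFPhi and 0.36 in GFPlo, and Cxcl2, at 2.26 in GFPhi and 1.23 in GFPlo. Lower were Ccl11, at 3.33 in GFPhi and 6.50 in GFPlo, Ccl2, at -0.30 in GFPhi and 0.83 in GFPlo, and also Ccl7, Ccl19 and Cxcl1. Fibroblast markers moved alongside, with a mean of 1.74 in GFPhi and 4.35 in GFPlo, and basal markers stood at 5.06 in GFPhi and 1.61 in GFPlo, and the part of either was not tested.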

How the data were processed

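Sorted-cell RNA (Cy5) and reference RNA (Cy3) were read on 14 arrays with Agilent Feature Extraction 9.5.3.1, per the submitters' processing notes. The deposited scanner files give, per the file headers, intensity per spot, local background, flags and a log10 ratio of Cy5 over Cy3. The deposited series table held log2 ratios that tracked the scanner's (correlation 0.990 to 1.000, column medians -0.018 to 0.10, not centred). The genome build named in the headers is mm7, and how the spots were annotated is not given in the sources used here.

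Where the scanner marked a local background as an outlier (17 to 381 spots in Cy5), the array's median background took its place, then normexp with an offset of 50 and loess were run in limma 3.58.1 (R 4.3.3), with control spots at weight 0 and outlier spots (77 to 193 per array) left out. The offset pulls ratios of dim probes toward 0. A probe was kept where its Cy5 signal was flagged well above background on both arrays of any of the 6 replicated groups, and the brightest probe stood for a gene. limma was fitted to 12 arrays in 6 groups (6 residual degrees of freedom), with Benjamini-Hochberg adjustment over all genes, and tested on simulated data. The median Cy5 intensity of an array was 70.9 to 196 and its median background 32.0 to 34.5, with 66.4% to 86.7% of probes above background; the number of arrays limits the precision.

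Arrays with the same replicate number in the labels deviated together within a condition (correlations 0.63 to 0.69 in pregnant and 0.30 to 0.68 in virgin mice, 3 pairs each) and not across conditions (-0.21 to 0.15). The replicate block was set within each condition, so it takes that shared deviation out of the spread. A pregnant minus virgin difference does not cancel the deviation, so its p-values with the block may be too small. Only scan 2 held both conditions. Values on every array are given for all called members. Shares of all genes called are given only for the fit without a block. Alternatives were the scanner's log ratio, median centring, no filter, all probes, slide, scan or replicate number as a block, the series table, leaving out the arrays of scan 3 or 1 array, and Cy5 alone. The members and gene lists were chosen with earlier results of these data known.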

Additional observations from a re-analysis of the deposited data

Results flagged for a closer look

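The pregnancy effect differed among P4, P5 and P6 by limma's F test across all genes for 5 chemokines. Cxcl15 had an adjusted p of 0.000191, with effects of -0.71 in P4, -4.39 in P5 and -0.66 in P6. Cx3cl1 had an adjusted p of 0.00800, with effects of 0.036 in P4, -2.97 in P5 and 0.71 in P6. Ccl28 had an adjusted p of 0.0168, with effects of 0.094 in P4, 1.36 in P5 and -0.24 in P6. Ccl9 had an adjusted p of 0.0451, with effects of 0.22 in P4, 1.89 in P5 and 0.069 in P6. Ccl2 had an adjusted p of 0.0400, with effects of -0.77 in P4, 0.31 in P5 and -1.83 in P6.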

How the results depend on the processing

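Of the 60 calls of a chemokine in a comparison, 60 were kept with all probes fitted and with the replicate block, 58 with the scan as a block, 56 without the filter on dim probes, 56 with Cy5 alone (chosen after seeing the data), 54 with the slide as a block, 53 with the scanner's log ratio, the series table or without the arrays of scan 3, and 43 with median centring. Leaving out 1 array in turn, 36 calls were kept in every fit. The Ccl11 difference between virgin P4 and P6 was 0.0056 with the scanner's log ratio (adjusted p = 0.999) and with the series table, so its call was lost and no difference was left, and the cause was not tested. The 5 calls in pregnant minus virgin P4 became 2 without scan 3 and with either the series table or the scanner's ratio, 1 with median centring or the slide as a block, and 10 with the replicate block. The 6 calls in pregnant minus virgin P5 became 11 with the scan as a block and 12 with the replicate block. The 0 calls in P6 became 4 with the replicate block and 1 with the scan as a block or Cy5 alone. Virgin P4 minus P5 gave 14 with the slide block, 15 with the scan block and 15 with the replicate block. Virgin P4 minus P6 gave 11 with the slide block, 12 with the scan or replicate block, 9 without scan 3 and 8 with Cy5 alone. Virgin P5 minus P6 gave 14 without scan 3. Pregnant P4 minus P6 gave 15 with the scan or replicate block and 10 with Cy5 alone. The count of chemokines whose effect differed among populations was 3 with the series table or the scanner's ratio and 9 with the scan or replicate block.

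Leaving out 1 array moved the counts between 0 and 4 in pregnant minus virgin P4, 5 and 8 in P5, 0 and 1 in P6, 4 and 10 in virgin P4 minus P5, 3 and 6 in virgin P4 minus P6, 6 and 9 in virgin P5 minus P6, 7 and 13 in pregnant P4 minus P5, 5 and 8 in pregnant P4 minus P6, 9 and 13 in pregnant P5 minus P6, and 2 and 7 in the F test. The lone array left in a group was assumed to vary like the other groups. The median of all genes moved to 0.14 in pregnant minus virgin P4 and 0.16 in pregnant P4 minus P6 with median centring. With the scanner's log ratio it was 0.10 in pregnant minus virgin P5, -0.17 in pregnant P4 minus P5 and 0.16 in pregnant P5 minus P6. Cxcl5 was not above background on any pregnant array, so its differences there were not measured.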
